A study of Schizosaccharomyces pombe with 24 samples.

Results

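The comparison was between fission yeast (Schizosaccharomyces pombe) carrying a deletion of clr4 and wild type, each 1 h after transfer to medium without a nitrogen source. It used the 4 libraries that the labels give as clr4D or wt at 1 h, 2 of each strain, out of 24 libraries that cover both strains at 0, 1, 2, 4, 10 and 24 h. The clr4D strain is 975 h+ clr4D::NatMX6, in which a NatMX6 cassette stands in place of clr4, and the wt strain is 975 h+; both therefore share the mating type label h+ and the 975 background. Cells of both strains grew in supplemented EMM, were washed and were then kept in EMM without nitrogen. The series describes the 2 libraries of each group as biological replicates. Total RNA depleted of ribosomal RNA was sequenced with a directional kit, and each value below starts from the deposited count of reads per gene.

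Clr4 is the histone methyltransferase that places methyl groups on lysine 9 of histone H3, the mark on which fission yeast heterochromatin is built. Heterochromatin in this organism covers the outer repeats of the centromeres, the ends of chromosomes I and II, and the silent mating-type cassettes, and genes placed within it are normally kept at low RNA levels. Loss of nitrogen stops growth, brings h+ and h- cells toward mating and turns on genes for taking up and breaking down other nitrogen sources, many of which lie near chromosome ends.

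The libraries of clr4D at 1 h held 807673 and 873610 reads in genes, and those of wt at 1 h held 2855385 and 683724. Levels are given as CPM, the count of a gene scaled to a common library size after correction by the TMM method, so 1 read was worth more CPM in the shallower libraries. Reads that aligned to more than 1 place were not counted to any gene and made up 7.41% and 7.67% of the reads in clr4D, against 5.43% and 5.45% in wt. Copies of the centromeric repeats, the mating-type cassettes, the telomere-linked helicases and the histone genes can lose reads in this way, so their levels are uncertain. Log2 CPM values of the replicates correlated across genes at 0.974 in clr4D and 0.980 in wt (Pearson's r; genes are not independent replicates).

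At 1 h, 38 of 5664 tested genes (0.671%) differed between clr4D and wt at an adjusted p under 0.05 in edgeR's quasi-likelihood test with Benjamini-Hochberg adjustment, and such genes are called below. Of these, 26 (0.459% of the genes tested) were higher in clr4D and 12 (0.212%) were lower. The called genes with higher RNA comprised 18 coding genes and 8 long non-coding RNAs (lncRNAs), while all 12 lower genes were coding. The genes called higher averaged a median of 39.4 CPM in clr4D and 1.49 CPM in wt, and 21 of the 26 were under 10 CPM in wt. The genes called lower had medians of 215 CPM in clr4D and 483 CPM in wt. The difference exceeded 2-fold for 25 of the 26 higher genes and for 5 of the 12 lower ones. Over all tested genes the median log2 difference was −0.01, with quartiles at −0.17 and 0.15. In bulk RNA, a change in how many cells express a gene and a change in RNA per cell cannot be told apart. Leaving out the deep wt library, wt 1 h replicate 1, left 19 calls, of which 18 were among the 38, and leaving out clr4D 1 h replicate 2 left 25.

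**Figure D1:**
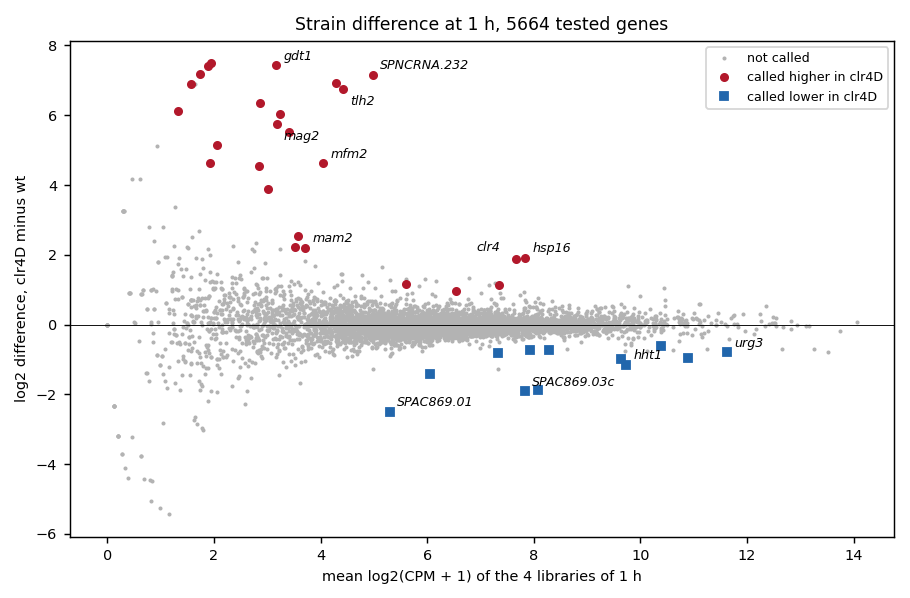
Each point is 1 of the 5664 tested genes, with the mean log2(CPM + 1) of the 4 libraries of 1 h on the horizontal axis and the edgeR log2 difference, clr4D minus wt, on the vertical axis. Red circles are the 26 genes called higher and blue squares the 12 called lower; the fitted values of genes with few or no wt reads, at the upper left, depend on the prior count.

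The targeted gene was examined first. The clr4 feature (SPBC428.08c) had 343 and 427 CPM in the libraries labelled clr4D, against 93.5 and 123 CPM in the wt libraries, a log2 difference of 1.89 ± 0.24 (SE; edgeR adjusted p = 0.000112). The feature thus carried more reads in the libraries labelled as a deletion, in both replicates, and the count tables give no position of a read within a gene. The same feature had 277 and 397 CPM in clr4D and 89.3 and 172 CPM in wt at 0 h, but 146 and 117 CPM in clr4D and 114 and 107 CPM in wt at 2 h. Its antisense partner meu6 (SPBC428.07) had 4.04 and 1.28 CPM in clr4D and 1.57 and 1.60 CPM in wt. Of the 7 genes in the list of clr4 and its neighbours, clr4 alone was called; met17 (SPBC428.11), for homocysteine synthesis, had 78.0 and 53.9 CPM in clr4D and 36.5 and 35.1 CPM in wt (edgeR adjusted p = 0.488). The level of the feature alone does not show whether clr4 was intact in these libraries, which was not tested. Below, clr4D means the libraries labelled clr4D. The list of 31 matched heterochromatin and RNA interference factors had no called member, with a median log2 difference of −0.05. Within it, swi6, which encodes the HP1 protein that binds the Clr4 mark, had 91.5 and 93.7 CPM in clr4D and 88.4 and 89.4 CPM in wt. Argonaute, from ago1, had 117 and 125 CPM in clr4D and 135 and 136 CPM in wt.

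Some transcripts annotated as centromeric lncRNAs were called higher in clr4D. Of 26 such lncRNAs in the RefSeq annotation, a list put together after the values were seen, 14 had no read in any of the 4 libraries and 9 passed the filter on low counts. Passing it needed reads in some group, so these 9 are not all members. Of the 9, 7 were called higher, against 0.459% of all tested genes, and none lower. Summed over the list, the 26 lncRNAs reached 596 and 495 CPM in clr4D, against 3.93 and 9.58 CPM in wt. Most of that sum came from a pair of neighbours on chromosome I. SPNCRNA.232 had 311 and 257 CPM in clr4D and 1.18 and 4.79 CPM in wt, a log2 difference of 7.16 ± 0.66 (SE; edgeR adjusted p = 1.98e-05). SPNCRNA.231 had 183 and 140 CPM in clr4D and 1.18 and 1.60 CPM in wt (edgeR adjusted p = 0.000181). Both were high in each clr4D library and near 0 in each wt library. The third lncRNA of that run, nam5 (SPNCRNA.230), had 5.38 and 5.13 CPM in clr4D and no read in wt.

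The other called centromeric lncRNAs lay at lower levels. SPNCRNA.365 had 39.0 and 25.7 CPM in clr4D and 0 and 1.60 CPM in wt, while its neighbour SPNCRNA.364 had 17.5 and 8.98 CPM in clr4D and no read in wt. SPNCRNA.359 had 21.5 and 27.0 CPM in clr4D and 1.57 and 1.60 CPM in wt, and SPNCRNA.234 had 4.04 and 14.1 CPM in clr4D and no read in wt. The groups did not overlap for any of these, but the same held for all 26 genes called higher. The genes were chosen by a test on these libraries, so the lack of overlap is no further evidence. SPNCRNA.234 differed over 3-fold between the clr4D replicates. For genes without a wt read the fold is a lower bound, set against 3 reads over both wt libraries (0.946 CPM). SPNCRNA.364 was at least 13.9-fold higher in clr4D, SPNCRNA.234 at least 9.72-fold and nam5 at least 5.56-fold. Without wt 1 h replicate 1, which supplied most wt reads, 1 of the 7 calls was left, that of SPNCRNA.232, at a log2 difference of 5.87. Omitting any other library of 1 h left 5 calls. Reads with more than 1 alignment were more frequent in the clr4D libraries, and their part in the result was not tested.

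Genes at the ends of chromosomes I and II formed a further group. Of the 26 genes called higher, 7 (26.9%) lay within 50 genes of an end of chromosome I or II, as did 4 of the 12 called lower (33.3%), against 109 of the 5636 tested genes with a place in the gene order (1.93%). A list of genes from subtelomeric clones had 126 members, of which 72 were tested and 31 had no read in the 4 libraries. Of the 72, 7 were called higher and 4 lower, against 0.459% and 0.212% of all tested genes. Passing the filter on low counts needed reads in some group, so a gene could be tested through clr4D libraries alone. The 72 are therefore not all members, and these shares are a description. The same holds for the tested genes near the chromosome ends. The log2 differences lay between −2.84 and 7.49 with a median of −0.14, so the list moved in both directions. Without wt 1 h replicate 1 the list held 4 calls in each direction.

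Helicase genes of the chromosome ends were among the called genes. The telomere-linked helicase gene tlh2 (SPBCPT2R1.08c), for a RecQ-type DNA helicase, had 171 and 187 CPM in clr4D and 1.57 and 1.60 CPM in wt, a log2 difference of 6.76 ± 0.63 (SE; edgeR adjusted p = 1.98e-05). SPAC212.06c, annotated as a helicase-like protein, had 33.6 and 28.2 CPM in clr4D and 1.57 and 0 CPM in wt, a log2 difference of 4.55 ± 0.56 (SE; edgeR adjusted p = 1.98e-05). Its wt reads all came from wt 1 h replicate 1, without which the fitted value was 8.58 and depended on the prior count. The copy tlh1 (SPAC212.11) had 2.69 and 2.57 CPM in clr4D and no read in wt, and was not called (edgeR adjusted p = 0.603). The 3 other members of the helicase list had no read. Beside SPAC212.06c on chromosome I, SPAC212.08c, for a GPI-anchored surface protein, had 13.5 and 14.1 CPM in clr4D and no read in wt. Its RNA was at least 14.6-fold higher in clr4D, and its call depended on wt 1 h replicate 1, without which the adjusted p was 0.183.

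At 13 to 15 genes from the other end of chromosome I in RefSeq gene order, a run of 3 neighbours was called higher. The middle one, gdt1 (SPAC186.05c), whose product is annotated as a GDT1-like protein, had 72.7 and 62.9 CPM in clr4D and 0.393 and 0 CPM in wt. Its summed reads gave a ratio of 215, with an exact 95% counting interval of 37.7 to 8557, since wt held 1 read in all (edgeR adjusted p = 3.24e-09). SPAC186.06, annotated as an isomerase, had 37.7 and 55.2 CPM in clr4D and 0.393 and 1.60 CPM in wt, a ratio of 74.0 (19.7 to 623). The uncharacterized SPAC186.04c had 6.73 and 15.4 CPM in clr4D and no read in wt, at least 11.8-fold. SPAC186.02c, near the run and named after its values were seen, had 16.1 and 10.3 CPM in clr4D and 9.82 and 6.39 CPM in wt (edgeR adjusted p = 1.00). The gene that the names place between SPAC186.02c and the run was not among those tested. SPAC750.01, for an aldo/keto reductase, had 13.5 and 14.1 CPM in clr4D and 0.393 and 0 CPM in wt, a ratio of 43.8 (7.04 to 1809). The calls of gdt1 and SPAC186.06 held without any 1 library of 1 h, although without wt 1 h replicate 1 the log2 difference moved to 9.71, against 7.44 with it, for gdt1 and to 4.80, against 6.03 with it, for SPAC186.06, whereas those of SPAC186.04c and SPAC750.01 reached adjusted p values of 0.732 and 0.609 without 1 library, wt 1 h replicate 1 being among those they needed.

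A run of called genes also lay next to mat1, the expressed mating-type locus. SPBC23G7.10c, for an NADH-dependent flavin oxidoreductase, had 60.6 and 34.7 CPM in clr4D and 0.393 and 3.19 CPM in wt (edgeR adjusted p = 1.09e-06). Its neighbour mag2 (SPBC23G7.11), for a DNA glycosylase of base excision repair, had 57.9 and 51.3 CPM in clr4D and 1.18 and 0 CPM in wt (edgeR adjusted p = 3.19e-06). The ratio of summed reads was 50 (16.4 to 248) for SPBC23G7.10c and 57.6 (19.1 to 285) for mag2. These ratios rest on 3 wt reads each: for SPBC23G7.10c the log2 difference of 5.52 became 3.86 without wt 1 h replicate 1 and 6.66 without wt 1 h replicate 2, and for mag2 that of 5.75 became 9.40 without wt 1 h replicate 1. Both calls held in these fits. The lncRNA SPNCRNA.388 in the same run had 4.04 and 15.4 CPM in clr4D and 0 and 1.60 CPM in wt (edgeR adjusted p = 0.0382), a call lost without clr4D 1 h replicate 2 or wt 1 h replicate 1 (adjusted p up to 1.00). The next coding gene beyond mag2, rpt6, for a proteasome subunit, was chosen after the values were seen and was not called. It had 347 and 353 CPM in clr4D and 290 and 278 CPM in wt. The antisense lncRNA SPNCRNA.1487 over mag2 had 4.04 and 6.42 CPM in clr4D and 2.36 and 0 CPM in wt. The sources used here do not give the strand setting of the counting, and 6 of the 26 higher and 5 of the 12 lower genes have an annotated antisense partner whose reads may be mixed in.

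**Figure D2:**
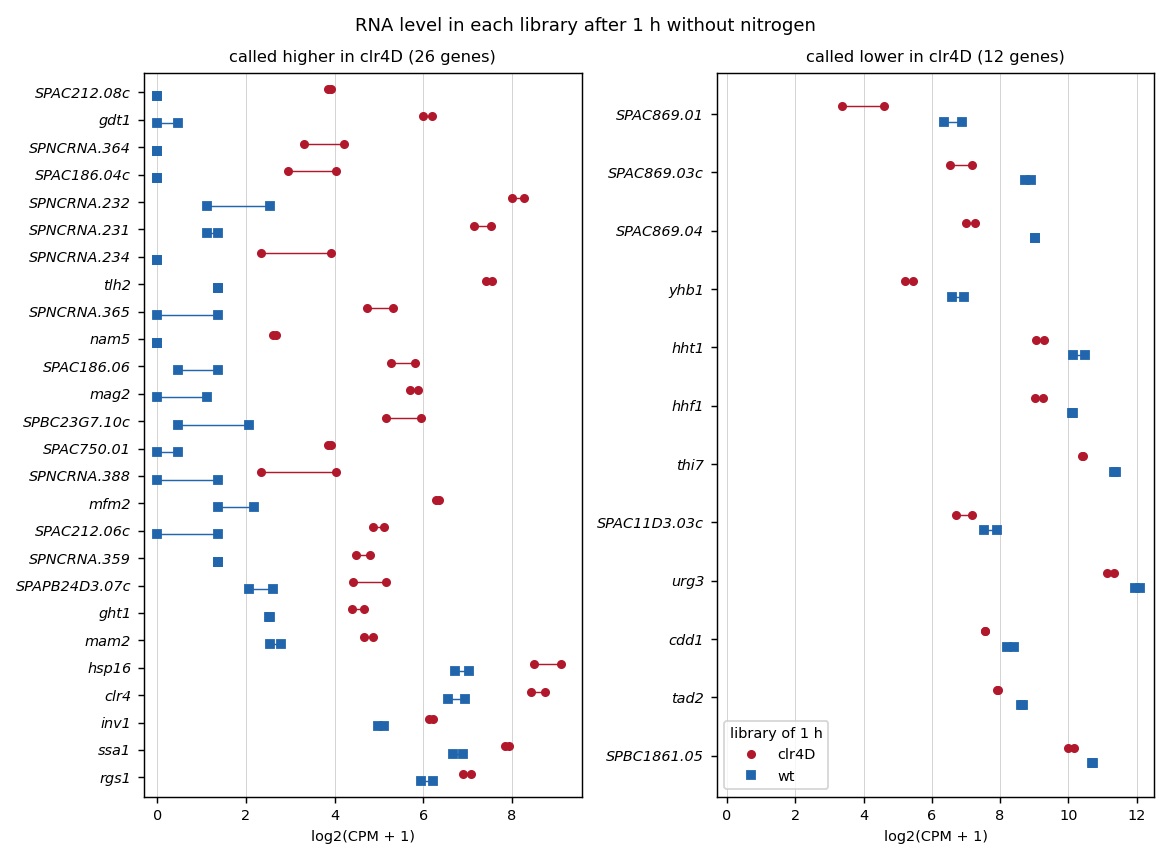
Each row is 1 of the 38 called genes and each point 1 library of 1 h on a log2(CPM + 1) axis, with clr4D as red circles above wt as blue squares and a line joining the 2 replicates. The rows were chosen by the test of this difference; 21 of the 26 higher genes average under 10 CPM in wt, and the lower genes are expressed in both strains.

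Mating genes were partly higher in clr4D at 1 h. In a P cell, which the label h+ stands for, the genes of the opposite M mating type, such as those of the M-factor pheromone and of the receptor for P-factor, are normally low, and the P-cell genes are used instead. Of 11 M-cell genes, 8 were tested and 2 were called higher, against 0.459% of all tested genes. None was called lower, 1 of the 8 had a log2 difference below 0, and the median log2 difference was 1.40. The filter on low counts used all 12 groups, so a gene could be tested through reads in clr4D at later times. These 8 are therefore not all members. The M-factor precursor gene mfm2 (SPAC513.03) had 76.7 and 80.8 CPM in clr4D and 3.54 and 1.60 CPM in wt, a log2 difference of 4.62 ± 0.34 (SE; edgeR adjusted p = 4e-09). The P-factor receptor gene mam2 (SPAC11H11.04) had 24.2 and 28.2 CPM in clr4D and 5.89 and 4.79 CPM in wt, a log2 difference of 2.20 ± 0.34 (SE; edgeR adjusted p = 0.00038). Without wt 1 h replicate 1 the log2 difference of mfm2 was 5.56 and mam2 was not called (adjusted p = 0.0907). Another precursor gene, mfm1, had 10.8 and 21.8 CPM in clr4D and 2.36 and 7.98 CPM in wt (edgeR adjusted p = 0.203). The M-factor transporter gene mam1 had 152 and 159 CPM in clr4D and 124 and 105 CPM in wt (edgeR adjusted p = 0.704). The 3 M-cassette genes of the list, mat1-Mc, mat3-Mc and mat3-Mi, had no counted read in any of the 4 libraries. Without clr4D 1 h replicate 2 the median of the 8 was 0.42.

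P-cell genes were present in both strains. Of 9 listed, 5 were matched by name and tested, which leaves out the P-cassette genes, and none of the 5 was called. The M-factor receptor gene map3 (SPAC3F10.10c) had 235 and 185 CPM in clr4D and 85.6 and 110 CPM in wt, at an edgeR adjusted p of 0.0712. DESeq2, limma-voom and the fit of the 4 libraries of 1 h alone called map3 higher, and the last of these also called map4. The P-factor gene map2 had 25.6 and 32.1 CPM in clr4D and 8.64 and 22.4 CPM in wt (edgeR adjusted p = 0.552). Their median log2 difference was 1.11. Of 27 genes of pheromone response and cell fusion, 2 were called higher, rgs1 and mag2, against 0.459% of all tested genes. The median was 0.21. mag2 is a DNA repair gene that this list holds in error, which leaves rgs1 as its only called gene of pheromone response. rgs1 (SPAC22F3.12c), whose product damps the pheromone G protein, had 118 and 135 CPM in clr4D and 60.5 and 73.4 CPM in wt, a log2 difference of 0.96 (edgeR adjusted p = 0.0306). That call was lost when any 1 of the 4 libraries was left out (adjusted p up to 0.853). Chosen after their values were seen were gpa1 and spk1. gpa1, for the G protein itself, had 187 and 169 CPM in clr4D and 181 and 166 CPM in wt. spk1, for the MAP kinase of the pathway, had 299 and 299 CPM in clr4D and 200 and 222 CPM in wt (edgeR adjusted p = 0.232).

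No gene of early meiosis (28 tested, median −0.06) or of middle and late meiosis and sporulation (26 tested, median 0.06) was called. The replicates disagreed for the regulators of entry into meiosis, with replicate 2 above replicate 1 in both strains. mei2, for the RNA-binding protein that starts meiosis, had 152 and 325 CPM in clr4D and 83.3 and 133 CPM in wt. pat1, for the kinase that holds Mei2 back, had 41.7 and 168 CPM in clr4D and 37.3 and 54.3 CPM in wt. ste11, for the transcription factor of mating genes, had 139 and 311 CPM in clr4D and 96.2 and 184 CPM in wt. For each of the 3, clr4D replicate 2 was the highest of the 4 libraries, and the edgeR adjusted p values were 0.232, 0.693 and 0.751.

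A smaller set of called genes had RNA in both strains and lay outside the places above. Of 32 heat shock and chaperone genes, 2 were called higher, against 0.459% of all tested genes, and none lower. Their median log2 difference was 0.15. The small heat shock protein gene hsp16 (SPBC3E7.02c) had 554 and 362 CPM in clr4D and 130 and 104 CPM in wt, a log2 difference of 1.92 ± 0.28 (SE; edgeR adjusted p = 0.000952). The Hsp70 gene ssa1 (SPAC13G7.02c) had 229 and 245 CPM in clr4D and 101 and 118 CPM in wt, a log2 difference of 1.14 ± 0.22 (SE; edgeR adjusted p = 0.00752). Every gene called higher, hsp16 included, was above wt in each clr4D library, which is no further evidence because the test chose them. hsp16 kept its call without any 1 library, while ssa1 lost its call without clr4D 1 h replicate 2 or wt 1 h replicate 1. The log2 differences of ssa1 were then 1.09 and 1.01. The disaggregase gene hsp104 had 998 and 943 CPM in clr4D and 768 and 741 CPM in wt (edgeR adjusted p = 0.770). None of the 37 tested genes of the core environmental stress response was called (median 0.09), among them hsp9, with 6675 and 5368 CPM in clr4D and 5850 and 5896 CPM in wt.

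Genes of sugar use were also among those called higher. Of 7 tested hexose transporter genes, ght1 (SPCC548.07c) alone was called, against 0.459% of all tested genes called higher. It had 20.2 and 24.4 CPM in clr4D and 4.71 and 4.79 CPM in wt, a log2 difference of 2.22 (edgeR adjusted p = 0.00433). The invertase gene inv1 (SPCC191.11), for the enzyme that splits sucrose outside the cell, had 68.6 and 73.2 CPM in clr4D and 30.6 and 33.5 CPM in wt, a log2 difference of 1.17 (edgeR adjusted p = 0.0262). The uncharacterized SPAPB24D3.07c had 35.0 and 20.5 CPM in clr4D and 5.11 and 3.19 CPM in wt, a log2 difference of 2.54 (edgeR adjusted p = 0.00156). All 3 lost their calls when 1 library was left out: inv1 with any of the 4 (adjusted p up to 0.732), ght1 with clr4D 1 h replicate 2 or wt 1 h replicate 1 (up to 0.442), and SPAPB24D3.07c with replicate 1 of either strain (up to 0.160). None of the 19 genes of glycolysis and gluconeogenesis was called (median −0.02); fba1, for aldolase, had 7477 and 8217 CPM in clr4D and 7959 and 7807 CPM in wt.

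The genes called lower in clr4D included 2 pairs of neighbours that lay 22 to 28 genes from the end of chromosome I, just inside the SPAC186 genes that were higher. SPAC869.01 (an amidase), yhb1 (SPAC869.02c, a nitric oxide dioxygenase), SPAC869.03c (a urea transporter) and SPAC869.04 (formamidase-like) are named in sequence along the chromosome, with 3 lncRNAs between the pairs, and have annotated roles in handling nitrogen compounds. SPAC869.03c had 91.5 and 145 CPM in clr4D and 420 and 477 CPM in wt, a log2 difference of −1.92 ± 0.24 (SE; edgeR adjusted p = 1.98e-05). SPAC869.04 had 126 and 154 CPM in clr4D and 514 and 520 CPM in wt, a log2 difference of −1.88 ± 0.27 (SE; edgeR adjusted p = 0.000142). The higher clr4D value of each gene was far below the lower wt value. The groups were apart for all 12 genes called lower, but the test chose these genes, so this is no further evidence.

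SPAC869.01 showed the largest drop of any called gene, with 9.42 and 23.1 CPM in clr4D and 80.1 and 117 CPM in wt, a log2 difference of −2.49 ± 0.36 (SE; edgeR adjusted p = 0.000342). yhb1 had 36.3 and 42.4 CPM in clr4D and 95.9 and 123 CPM in wt, a log2 difference of −1.41 ± 0.21 (SE; edgeR adjusted p = 0.000291). All 4 calls held without any 1 library, with SPAC869.01 at −3.28 without clr4D 1 h replicate 2. The next gene of the clone, sul2 (SPAC869.05c, named after its values were seen), had 292 and 240 CPM in clr4D and 271 and 247 CPM in wt, and put4 (SPAC869.10c), for a proline permease, had 1619 and 1498 CPM in clr4D and 1885 and 1845 CPM in wt (edgeR adjusted p = 0.915). Of the 4 genes, 3 came on with starvation in both strains. SPAC869.03c had 1.39 and 4.36 CPM in clr4D and 1.80 and 3.60 CPM in wt at 0 h, and 262 and 264 CPM in clr4D and 1081 and 1394 CPM in wt at 2 h. SPAC869.01 had no read in either strain at 0 h. yhb1 was expressed before starvation, with 36.9 and 32.7 CPM in clr4D and 60.5 and 64.8 CPM in wt at 0 h (edgeR adjusted p = 0.525).

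A histone gene pair was lower in clr4D. Of 11 histone genes, 2 were called lower, against 0.212% of all tested genes, and none higher. Of the 11, 10 had a log2 difference below 0, and the median was −0.41, against −0.01 over all genes. The called genes are the neighbours hht1 (SPAC1834.04), for histone H3, and hhf1 (SPAC1834.03c), for histone H4. hht1 had 529 and 622 CPM in clr4D and 1422 and 1121 CPM in wt, a log2 difference of −1.15 ± 0.17 (SE; edgeR adjusted p = 0.000231). hhf1 had 518 and 615 CPM in clr4D and 1104 and 1127 CPM in wt, a log2 difference of −0.98 ± 0.17 (SE; edgeR adjusted p = 0.00233). The groups were apart for both genes, as for all 12 genes called lower, which is no further evidence because the test chose them. The call of hhf1 was lost without clr4D 1 h replicate 1, at a log2 difference of −0.86. At 0 h hht1 had 463 and 567 CPM in clr4D and 526 and 479 CPM in wt, so the strains overlapped before starvation. In a comparison that shares the libraries of 1 h, the log2 difference of hht1 between 1 h and 0 h was 0.17 in clr4D (edgeR adjusted p = 0.425) and 1.34 in wt (3.42e-07). The direct test of whether this change differed between the strains missed the threshold (edgeR adjusted p = 0.167).

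The remaining H3 and H4 copies were not called. hht2 had 1110 and 1056 CPM in clr4D and 1150 and 1006 CPM in wt, an overlap of the groups. hht3 had 1519 and 1362 CPM in clr4D and 2290 and 1710 CPM in wt (edgeR adjusted p = 0.775), and hhf3 had 826 and 678 CPM in clr4D and 1272 and 953 CPM in wt (0.277). The H2B gene htb1 had 2765 and 2867 CPM in clr4D and 4225 and 3239 CPM in wt (edgeR adjusted p = 0.693). The copies of H3 and of H4 are alike in sequence, and reads that matched several of them were left uncounted. None of 23 targets of the MBF transcription factor of G1 and S phase was called (median −0.09), and cdc22, for ribonucleotide reductase, had 1255 and 1473 CPM in clr4D and 1304 and 1285 CPM in wt.

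The other 6 genes called lower had a level at 1 h well above that at 0 h and 2 h in both strains. Among them, urg3 (SPAC1002.18), one of a cluster of genes that uracil turns on, had 2242 and 2583 CPM in clr4D and 3991 and 4350 CPM in wt, a log2 difference of −0.79 ± 0.19 (SE; edgeR adjusted p = 0.0456). At 0 h urg3 had 202 and 207 CPM in clr4D and 121 and 128 CPM in wt, and at 2 h it had 153 and 149 CPM in clr4D and 140 and 132 CPM in wt. The order of the strains for urg3 was therefore opposite at 0 h and 1 h, although the difference between those times missed the threshold (log2 −1.50, edgeR adjusted p = 0.121).

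Its neighbours urg1 and urg2 had the same order of the strains but were not called. urg1 had 7953 and 9904 CPM in clr4D and 14671 and 16229 CPM in wt (log2 −0.79, edgeR adjusted p = 0.640), and urg2 had 4764 and 5425 CPM in clr4D and 7241 and 9442 CPM in wt (0.745). The cytidine deaminase gene cdd1 (SPAC1556.04c) had 188 and 189 CPM in clr4D and 293 and 338 CPM in wt (log2 −0.73, edgeR adjusted p = 0.0158). Uridine kinase, from uck2, had 853 and 870 CPM in clr4D and 1423 and 1464 CPM in wt (edgeR adjusted p = 0.151). The uridine ribohydrolase gene urh1 had 1148 and 1294 CPM in clr4D and 1984 and 2029 CPM in wt (edgeR adjusted p = 0.0607). DESeq2 called urh1 lower, and the fits of the 4 libraries of 1 h alone and of the 12 libraries of 0, 1 and 2 h called both uck2 and urh1 lower. The share of all tested genes called lower was 0.212%. A list of pyrimidine uptake, salvage and synthesis was put together after these values were seen, so its count is a description. Of its 16 tested genes, 2 were called lower (urg3 and cdd1), 6 when the 4 libraries of 1 h were fitted alone and none when any 1 of them was left out. ura1, a gene of pyrimidine synthesis, had 1327 and 1404 CPM in clr4D and 1330 and 1406 CPM in wt.

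thi7 (SPBC1683.05), annotated as a transporter and the direct neighbour of urh1, had 1385 and 1349 CPM in clr4D and 2701 and 2595 CPM in wt, a log2 difference of −0.95 ± 0.16 (SE; edgeR adjusted p = 0.0016). tad2 (SPBC16D10.10), for a subunit of the tRNA adenosine deaminase, had 242 and 240 CPM in clr4D and 391 and 410 CPM in wt, a log2 difference of −0.73 ± 0.11 (SE; edgeR adjusted p = 0.000342). The carbohydrate kinase gene SPBC1861.05 had 1013 and 1155 CPM in clr4D and 1681 and 1646 CPM in wt (log2 −0.62, edgeR adjusted p = 0.0158). The uncharacterized SPAC11D3.03c had 104 and 144 CPM in clr4D and 240 and 185 CPM in wt (log2 −0.82, edgeR adjusted p = 0.0168). Of these 6 genes, tad2 alone kept its call whichever library of 1 h was left out. urg3, cdd1 and SPBC1861.05 lost theirs with any of the 4 (adjusted p up to 0.362, 0.242 and 0.223), thi7 without clr4D 1 h replicate 2 (0.0582), and SPAC11D3.03c without replicate 1 of either strain (up to 0.863).

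**Figure D3:**
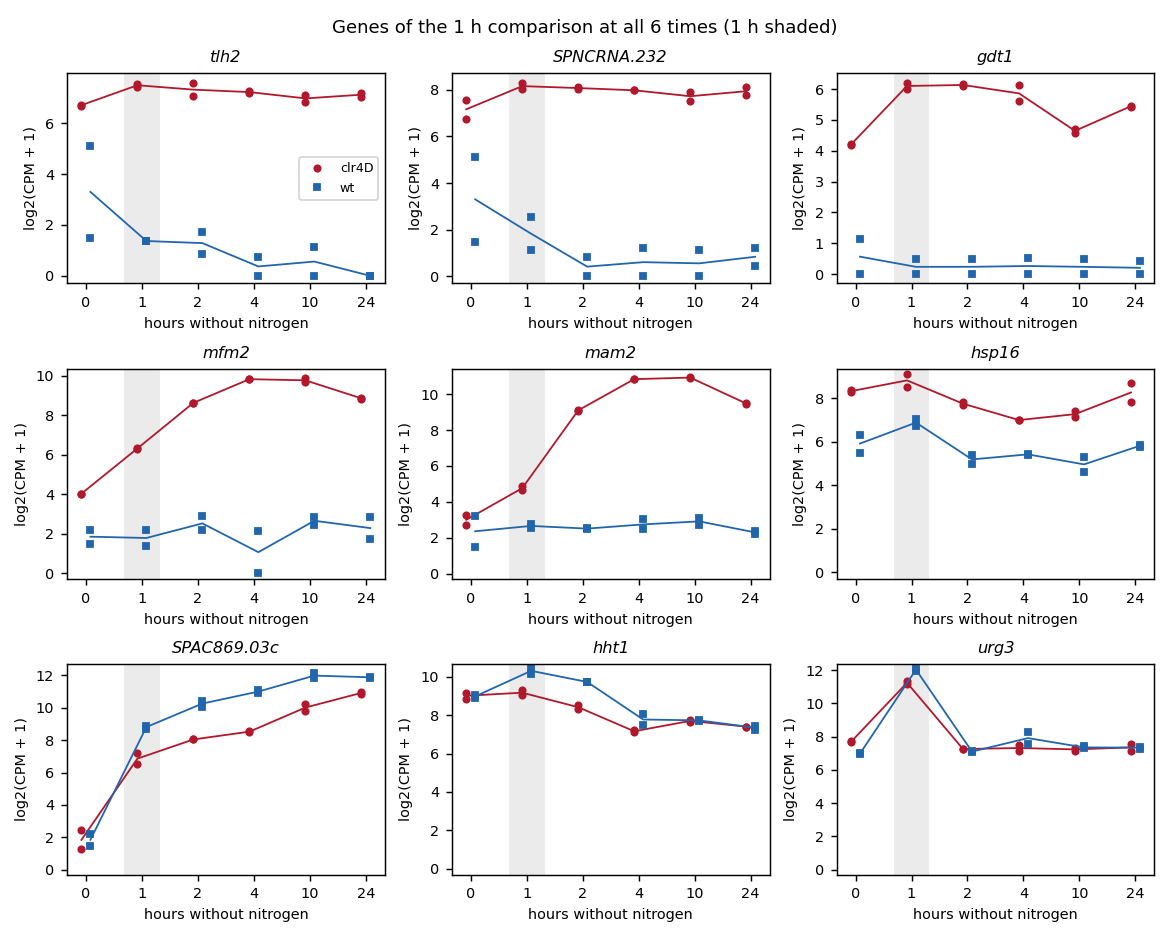
Levels of 9 called genes on a log2(CPM + 1) axis at 0, 1, 2, 4, 10 and 24 h without nitrogen, with clr4D as red circles and wt as blue squares, 1 point per library and a line through the mean of the 2 replicates. tlh2, SPNCRNA.232 and gdt1 were high in clr4D at all times, mfm2 and mam2 climbed after 1 h in clr4D, SPAC869.03c came on in both strains, and urg3 peaked at 1 h in both.

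Of the 29 lists drawn up for this comparison, 20 held no called member, and these covered 595 tested genes, at a share of called genes of 0.671% overall. The lists of nitrogen starvation were as follows. Among 23 genes of scavenging and proteolysis under nitrogen starvation, inv1 was called higher and urg3 lower, against 0.459% and 0.212% of all tested genes. The median log2 difference was −0.05. The vacuolar protease gene isp6, a marker of nitrogen starvation, had 17080.2 and 17933 CPM in clr4D and 16910 and 16431 CPM in wt. Neither the 15 ammonium transporter and amino acid permease genes (median −0.03) nor the 31 autophagy genes (median 0.04) held a call. The permease gene isp5 had 876 and 880 CPM in clr4D and 1146 and 1092 CPM in wt (edgeR adjusted p = 0.757), and atg8, for the ubiquitin-like protein of the autophagosome, had 269 and 261 CPM in clr4D and 269 and 225 CPM in wt.

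Growth genes showed no call. For 141 genes of cytosolic ribosomal proteins the median was 0.05, and for 101 genes of ribosome biogenesis it was −0.12, with 74 of them below 0. rpl13 had 642 and 671 CPM in clr4D and 640 and 500 CPM in wt. Iron uptake (15 genes, median 0.25), thiamine (9 genes, −0.04), methionine and sulfur assimilation (18 genes, 0.07), arginine (10 genes, −0.01), the copper and phosphate genes (15 genes, −0.03), septation (20 genes, 0.00) and the proteasome (33 genes, −0.01) held no call either. The wtf genes, which drive their own transmission through meiosis, had no call among 20 tested (median −0.05). Of 13 Tf2 retrotransposon genes, 9 had no counted read in the 4 libraries and 2 were tested, neither of them called. Their long copies are nearly identical, and reads shared between them were not counted.

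The same strain difference was measured at 0 h and 2 h in libraries of their own. At 0 h, 13 of 5664 genes were called (0.23%), and at 2 h, 88 (1.55%). Of the 26 genes called higher at 1 h, 11 were called higher at 0 h (42.3%), which was 100% of the 11 genes (0.194%) called higher at that time. At 2 h, 22 of the 26 were called higher (84.6%), out of 75 genes called higher then (1.32% of the genes tested; the 22 were 29.3% of the 75). Of the 12 genes called lower at 1 h, 6 were called lower at 2 h (50%, or 46.2% of the 13 genes, 0.23%, called lower then). These 6 were hht1, hhf1, yhb1, SPAC869.01, SPAC869.03c and SPAC869.04. At 0 h none of the 12 was called lower, with 2 genes (0.0353%) called lower in all, and 5 of the 12 had a difference below 0.

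For some of the higher genes the levels at the other times were as follows. hsp16 had 328 and 308 CPM in clr4D and 44.2 and 79.2 CPM in wt at 0 h, and 221 and 205 CPM in clr4D and 40.6 and 30.9 CPM in wt at 2 h. ssa1 was called at 0 h (edgeR adjusted p = 0.0044) but had 546 and 540 CPM in clr4D and 484 and 424 CPM in wt at 2 h (0.898). mag2 had no read in clr4D and 0 and 4.80 CPM in wt at 0 h, and the difference between 1 h and 0 h missed the threshold (edgeR adjusted p = 0.206). tlh2 had 102 and 105 CPM in clr4D at 0 h, while the wt libraries of 0 h differed from each other, at 1.80 and 33.6 CPM. SPNCRNA.232 showed the same gap in those wt libraries, at 1.80 and 33.6 CPM, against 187 and 107 CPM in clr4D.

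**Figure D4:**
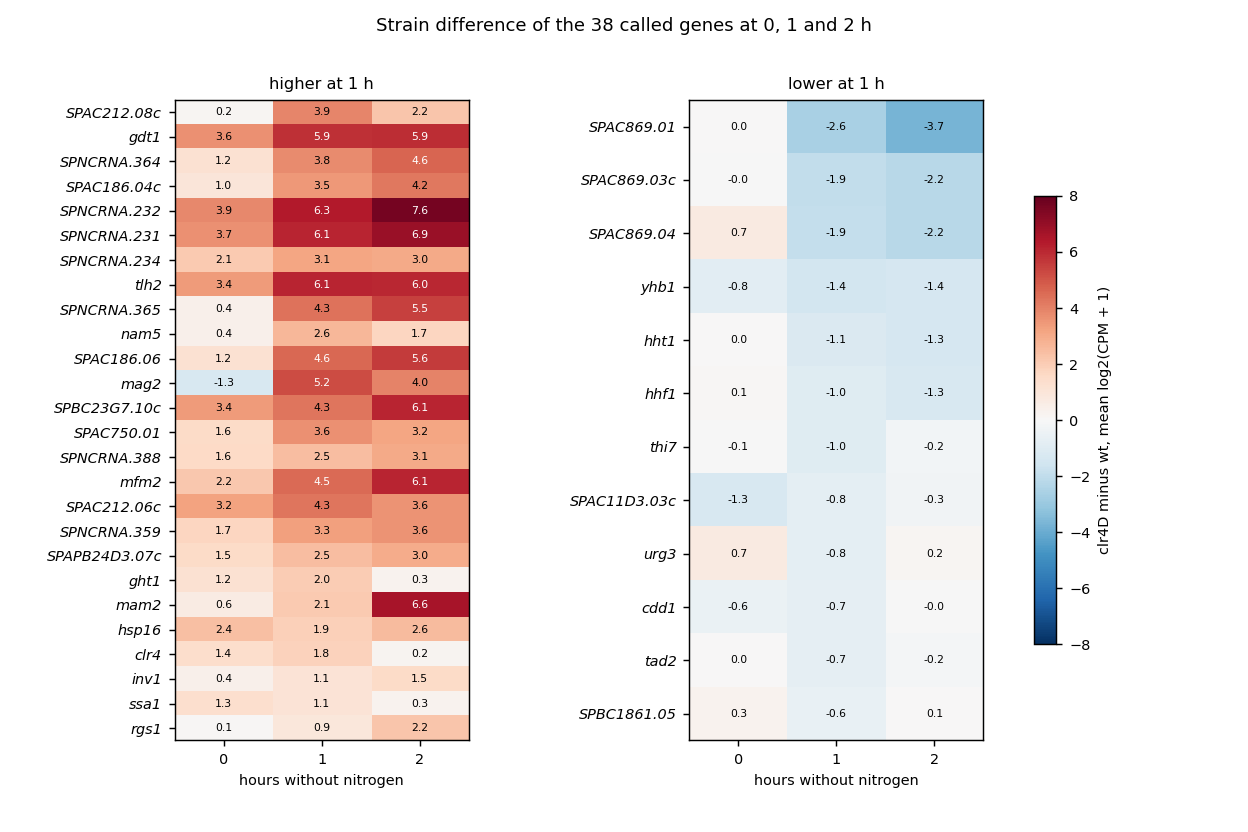
Strain difference of the 38 called genes, clr4D minus wt in mean log2(CPM + 1) over 2 libraries each, at 0, 1 and 2 h without nitrogen, with genes called higher at 1 h on the left and lower on the right. Red is higher and blue lower in clr4D; tlh2 is red at all 3 times, and urg3 and tad2 are blue at 1 h without a like difference at 2 h.

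A test of the difference between times asked where the strain difference at 1 h departed from that at 0 h or 2 h. For 1 h against 0 h, edgeR called 0 of 5664 genes (0.0%), with 224 at an unadjusted p under 0.05, while DESeq2 called 7 and limma-voom 0. The genes nearest to the threshold were urg3, then hht1 (log2 −1.17, edgeR adjusted p = 0.167). For 2 h against 1 h, 8 genes (0.141%) were called, all with a larger clr4D minus wt difference at 2 h. The smallest p was that of sxa2, for a carboxypeptidase that degrades P-factor, with 24.2 and 17.97 CPM in clr4D and 24.0 and 25.5 CPM in wt at 1 h. mam2 reached 561 and 536 CPM in clr4D and 4.63 and 4.75 CPM in wt at 2 h, a log2 change of 4.64 ± 0.49 (SE; edgeR adjusted p = 4.8e-06) in the strain difference. At 2 h all 8 tested M-cell genes were called higher in clr4D, against 1.32% of all tested genes. Their median was 4.89, against 2 of 8 called and 1.40 at 1 h. The filter on low counts used all 12 groups, so a gene could be tested through reads in clr4D at 2 h or later, and these 8 are not all members.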

How the data were processed

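RNA of 24 libraries was measured, and the unit used is the raw count of reads per gene that the authors deposited. Per the submitters' processing notes, TopHat2 2.0.8, HTSeq 0.6.1 and the genome build ASM294v2 were used; no source used here gives the annotation release or the strand setting. Lines that name no gene were taken out of library sizes and tests; at 1 h they included reads outside genes (2.82% to 3.21% of reads) and reads in more than 1 gene (1.14% to 1.33%). At 1 h the libraries held 683724 to 2855385 counted reads, so 3 reads, the limit that a count of 0 allows (counting error only), were worth 1.05 to 4.39 CPM in 1 library.

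All 24 libraries were fitted together in edgeR 4.0.16 (R 4.3.3) with 12 group means, TMM scaling, filterByExpr (5664 genes kept, 1213 left out) and the robust quasi-likelihood test, on 12 residual degrees of freedom; a gene was called at a Benjamini-Hochberg adjusted p under 0.05. The fit was checked on simulated counts with the same dispersion for every gene and with changes smaller than the largest seen here. The check therefore did not cover the large differences of genes with few or no wt reads. Alternatives were other scalings and filters, DESeq2 1.42.0, limma-voom (limma 3.58.1), fewer libraries, a replicate block and each library of the comparison left out. Intervals of read ratios are exact and cover counting error only. The p-values rest on 2 biological replicates a group.

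Gene names, products, gene order and antisense partners came from RefSeq for assembly ASM294v3 (6705 of 6877 genes matched, 172 did not); as the build differs, no coordinates are given. Genes named are all those called at 1 h or in the test of 2 h against 1 h, up to 2 per list (called, or else highest per length), clr4 and its neighbours, some landmark genes, all members of 6 short lists, and a few marked as chosen after their values were seen. Genes and lists were chosen with earlier results of these data known, and 2 lists were added after the values were seen.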

Additional observations from a re-analysis of the deposited data

Results flagged for a closer look

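In 8 genes the strain difference at 2 h differed from that at 1 h by a test of the difference itself (edgeR's quasi-likelihood test on the interaction, Benjamini-Hochberg adjusted p under 0.05). The log2 change of the clr4D minus wt difference was 4.64 for mam2, 3.76 for sxa2, 2.94 for shk2, 1.44 for fus1, 4.58 for mfm1, 2.25 for SPBC146.02, 2.19 for mam1 and 4.84 for SPNCRNA.573. Of these genes, sxa2 degrades P-factor, shk2 encodes a PAK-family kinase, fus1 encodes a formin of cell fusion, and mfm1 encodes an M-factor precursor.

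Reads that aligned to more than 1 place, which enter no gene count, made up 7.41% of the reads of clr4D 1 h replicate 1 and 7.67% of clr4D 1 h replicate 2, above the 5.43% and 5.45% of the wt libraries of 1 h. At 0 h the shares were 10.1% and 12.4% in clr4D and 10.4% and 9.26% in wt, and at 2 h they were 8.30% and 7.76% in clr4D and 5.61% and 5.55% in wt.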

How the results depend on the processing

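For the strain difference at 1 h, the number of genes called was 38 and lay between 35 and 54 with other scalings or filters, DESeq2, limma-voom, the 12 libraries of 0, 1 and 2 h, or without wt 4 h replicate 2, whose group had the lowest replicate correlation. It was 73 when only the 4 libraries of 1 h were fitted, with 37 of the 38 genes kept. Leaving out 1 library of 1 h gave 19 to 40 calls, the lowest when wt 1 h replicate 1 was dropped; dropping clr4D 1 h replicate 2 gave 25. In all of these settings 16 genes were called, 10 higher and 6 lower, among them clr4, tlh2, SPNCRNA.232, gdt1, mfm2, hsp16, hht1 and tad2; no called gene changed sign. For 1 h against 0 h, edgeR called 0 genes, but upper quartile factors, library totals alone and the fit without wt 4 h replicate 2 gave 2 each, the 12 libraries of 0, 1 and 2 h gave 3 and DESeq2 gave 7; leaving out 1 library gave 0 to 3, the 3 without wt 0 h replicate 1. For 2 h against 1 h, 8 genes were called, against 13 from only the libraries of the groups compared and 14 from DESeq2; leaving out 1 library gave 4 to 9, with 4 without either wt library of 1 h. Why these counts differ was not tested. The main fit did not pair libraries by replicate number. Correlations of same-numbered deviations ran from −0.08 to 0.33 over 66 pairs of groups, with 0.15 for clr4D 1 h with wt 1 h. Of the 66, 23 were over 0.1. Most were above 0, and whether same-numbered libraries share an effect was not tested. With the replicate block, 44 genes were called at 1 h, all 38 among them. Of the named genes, mfm1, map3, urh1 and uck2 were called as well. The block gave 0 calls for 1 h against 0 h and 10 for 2 h against 1 h. Depth limits the genes near 0 in wt: 5 of the 26 higher genes had no wt read and 7 had 1 to 3, so the size of their difference is known only as a bound or a wide interval.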
